A study of Mus musculus with 16 samples.

Results

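Accessibility at the Irf8, Irf4 and Fezf2 loci was described in mouse medullary thymic epithelial cells (mTECs) through 224 of the 250313 regions of 500 bp in the deposited table. The members were the regions lying wholly within 3 windows in mm9 coordinates. These were chr8:123160000-123380000 for Irf8, with 102 regions, chr13:30740000-30960000 for Irf4, with 72, and chr14:13070000-13280000 for Fezf2, with 50. Position alone defines the members, but the windows were chosen with earlier results of these data known. An mm9 gene annotation was not used here, so the place of each gene within its window was not checked and no region was assigned to a promoter, exon or intron. In the RefSeq annotation of the later build GRCm38.p6, the protein-coding neighbours were Cox4i1 and Foxf1 for Irf8, Dusp22 and Exoc2 for Irf4, and 3830406C13Rik and Cadps for Fezf2.

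The measurement was ATAC-seq, in which the transposase Tn5 cuts open chromatin and tags it with sequencing adapters. Thymic stroma of C57BL/6 mice aged 4 weeks was sorted for cells that were CD45-negative, Epcam-positive, UEA-positive and low for Ly51, and MHC class II on the surface then split them into a high (mTEChi) and a low (mTEClo) fraction. Each reaction used 60000 cells. The genotypes were Aire+/+ and Aire-/-, the latter lacking the nuclear regulator that drives much tissue-restricted transcription in these cells, and Brg1+/+ and Brg1-/-. Brg1-/- lacks an ATPase of SWI/SNF chromatin remodelling complexes. Each genotype gave 2 mTEChi and 2 mTEClo libraries, which makes 8 groups and 16 libraries. The Brg1+/+ libraries are described as NOCRE, so Cre as well as Brg1 may differ between them and the Brg1-/- libraries. The sources used here do not give the promoter that drives Cre. They also leave unsaid if replicates were separate mice, and p-values then reflect the spread among these libraries alone, which may be technical.

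Irf8 and Irf4 belong to the interferon regulatory factor family, whose members bind GAAA-rich elements, often together with Ets factors such as PU.1 and Spi-B or with AP-1 factors of the BATF group. Irf8 is best known for directing macrophage, dendritic cell and B cell development, and Irf4 for its part in plasma cells and activated T cells, where it is induced by antigen receptor and NF-kB signals. Fezf2 is a zinc finger transcription factor known from the developing forebrain. In mTECs it is required for a set of tissue-restricted genes largely separate from those that depend on Aire.

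The promoter sequences of the genes are shown because their basal elements differ. Each is the run of 250 bases before the RefSeq transcription start in GRCm38.p6, written 5′ to 3′ on the strand of the gene. Capitals mark matches on either strand to 5 motifs that were searched: TATAAA, the core of the TATA box, CCAAT, the GC box GGGCGG, the interferon regulatory factor pattern AANNGAAA and TGANTCA. The last is a loose form of the AP-1 pattern that leaves the central base open. No matches overlapped.
Irf8 promoter, chr8:120736108-120736357, plus strand: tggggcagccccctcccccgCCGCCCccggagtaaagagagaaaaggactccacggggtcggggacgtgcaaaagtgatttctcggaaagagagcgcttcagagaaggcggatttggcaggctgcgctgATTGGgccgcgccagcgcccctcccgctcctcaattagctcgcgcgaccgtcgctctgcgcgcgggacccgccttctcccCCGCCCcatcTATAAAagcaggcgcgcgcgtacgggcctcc
Irf4 promoter, chr13:30748983-30749232, plus strand: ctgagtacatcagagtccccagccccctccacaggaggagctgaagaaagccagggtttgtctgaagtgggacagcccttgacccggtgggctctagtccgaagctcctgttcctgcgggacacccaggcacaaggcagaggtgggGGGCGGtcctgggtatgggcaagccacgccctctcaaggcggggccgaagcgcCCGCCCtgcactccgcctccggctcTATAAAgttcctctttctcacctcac
Fezf2 promoter, chr14:12345866-12346115, minus strand: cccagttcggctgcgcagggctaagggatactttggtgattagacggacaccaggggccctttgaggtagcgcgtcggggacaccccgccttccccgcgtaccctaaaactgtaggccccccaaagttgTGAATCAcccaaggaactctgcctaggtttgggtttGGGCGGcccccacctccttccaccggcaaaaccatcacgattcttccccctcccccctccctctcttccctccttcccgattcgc

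The Irf8 sequence held a TATAAA whose first base lay 31 bases before the start, and the Irf4 sequence held one 26 bases before it. The Fezf2 sequence held none. Of the 32851 mouse promoters in the same table, 12.4% held TATAAA in a window of this length. The GC box GGGCGG, in 32.7% of all promoters, occurred 2 times at Irf8, 2 times at Irf4 and 1 time at Fezf2. Irf8 also held 1 CCAAT match, read on the minus strand, against 33.8% of all promoters with at least 1. Fezf2 held 1 match to TGANTCA, with the sequence TGAATCA, and 6.75% of promoters held a match with any central base. AANNGAAA, present in 21.3% of promoters, was not found in these 3 windows. The GC content was 67.2% for Irf8, 63.6% for Irf4 and 61.2% for Fezf2, against a median of 52.4%, and Irf8 held 29 CG dinucleotides against a median of 6. A second RefSeq start of Irf8 held none of the 5 motifs. These positions are in GRCm38.p6 and cannot be set against the mm9 positions of the regions, even where the numbers look alike, as on chromosome 13.

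The values were the authors' normalized signal, whose depth is unknown and for which the sources used here give no scaling method. Library medians over all regions lay between 8.51 and 19.8. Across all regions the log2 signals of replicates correlated least in Aire+/+ mTEChi (r = 0.553). They correlated at 0.600 to 0.770 in the other mTEChi groups and at 0.750 to 0.811 in mTEClo. Replicate 2 of Aire+/+ mTEChi also had the lowest median correlation with the other mTEChi libraries, 0.557 against 0.597 to 0.691. The labelled cell type could not be checked against its markers without an mm9 annotation. Differences were tested with limma on log2(signal + 1) over the 225281 regions whose mean signal passed a filter at the 10th percentile, and the threshold for a call was 0.05 on the Benjamini-Hochberg adjusted p. Each region had 1 estimate of spread, pooled over the 8 groups. SEs and p-values therefore do not measure the spread of the particular sort or groups compared. Of the members, 218 passed the filter, 98 at Irf8, 71 at Irf4 and 49 at Fezf2. The 6 that did not had mean signals of 5.85 to 7.45 and library values of 0.381 to 25.8.

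The 3 windows differed in how densely they were covered. Irf8 held 46.4 regions per 100 kb, Irf4 32.7 and Fezf2 23.8, and the median distance between neighbouring starts was 1160, 2033 and 1940 bp, against 3437 bp over the table. The mean signal over all libraries exceeded the table median in 70.8% of Irf4 regions, 58% of Fezf2 regions and 52.0% of Irf8 regions. In what follows a region is placed by its distance from the region with the highest mean signal of its window, which lies at 0 kb.

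**Figure D1:**
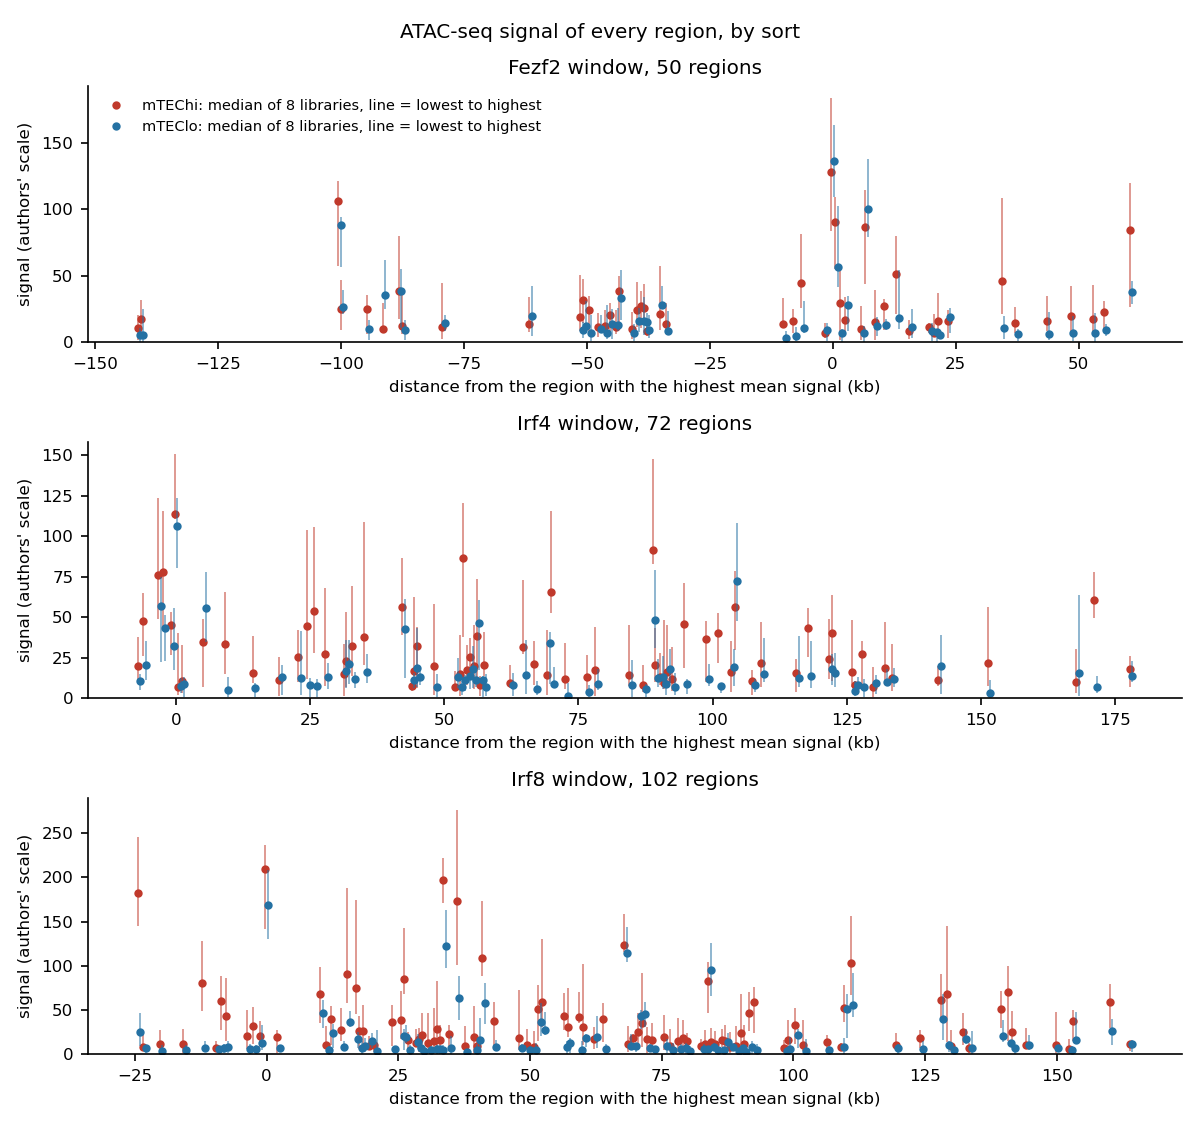
Signal of the 224 regions, by distance in kb from the region with the highest mean signal in each window (x axis) and signal on the authors' scale (y axis). Points are medians of 8 mTEChi (red) or 8 mTEClo (blue) libraries and lines run from the lowest to the highest library, drawn slightly apart for legibility. The region at -24.2 kb in the Irf8 window has a median of 182 in mTEChi and 24.9 in mTEClo, while the region at 0 kb in each window has medians of similar size in both sorts.

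At all 3 loci the region with the most signal was open in both sorts. The top Irf8 region (chr8:123191833-123192332, 98.7th percentile of all regions by mean signal) ranged from 141 to 236 in the 8 mTEChi libraries, with a median of 209, and from 129.8 to 209 in the mTEClo libraries, with a median of 169. The groups overlapped, and no genotype called a difference. At the top Irf4 region (chr13:30751731-30752230) the lowest, median and highest values were 111, 114 and 151 in mTEChi against 80.5, 106 and 124 in mTEClo. At the top Fezf2 region (chr14:13216733-13217232) they were 84.0, 128 and 184 in mTEChi against 109.6, 136 and 163 in mTEClo. The sorts overlapped at both, and neither was called in any genotype. For the Fezf2 region the log2 differences were -0.34 ± 0.25 (SE) in Aire+/+, 0.36 ± 0.25 in Aire-/-, -0.60 ± 0.25 in Brg1+/+ and 0.23 ± 0.25 in Brg1-/-, n = 2 libraries per group, with limma adjusted p-values of 0.44, 0.387, 0.104 and 0.587.

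Around these shared regions, and on the authors' scaling, flanking regions were called more accessible in mTEChi. The shares were above those of the whole table at Irf8 and Irf4. At Fezf2, where the counts were small, 3 of 4 shares lay a little below the table's and 1 above, which does not set that window apart. Here and throughout, a larger share of cells with an open region and a more open region in each cell cannot be told apart. All 8 mTEChi libraries lay above all 8 mTEClo libraries at 20 Irf8 (20.4%), 9 Irf4 (12.7%) and 2 Fezf2 regions (4.08%), against 5.15% of all tested regions. The reverse separation, which 1.93% of all tested regions showed, occurred at none of the members. Calls of higher signal in mTEChi in all 4 genotypes numbered 7 at Irf8 (7.14%), 4 at Irf4 (5.63%) and 0 at Fezf2, with 1.34% over the table. At least 2 genotypes called 22 Irf8 (22.4%), 9 Irf4 (12.7%) and 3 Fezf2 regions (6.12%) higher, where the table's share was 6.83%. At least 1 genotype called 33 (33.7%), 22 (31.0%) and 10 (20.4%), where it was 16.7%. Lower signal in mTEChi was called in 1 genotype each at 1 Irf8, 1 Irf4 and 2 Fezf2 regions, and 7.68% of all tested regions were called lower in some genotype. No genotype called 64 of 98 Irf8, 48 of 71 Irf4 and 37 of 49 Fezf2 regions. The share of all regions never called is not given here, so these counts cannot be set against the table. The regions called higher in at least 2 genotypes did not form a compact block. They ran from -24.2 to 141.0 kb at Irf8, from 9.4 to 171.4 kb at Irf4 and from -140.5 to 34.6 kb at Fezf2.

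**Figure D2:**
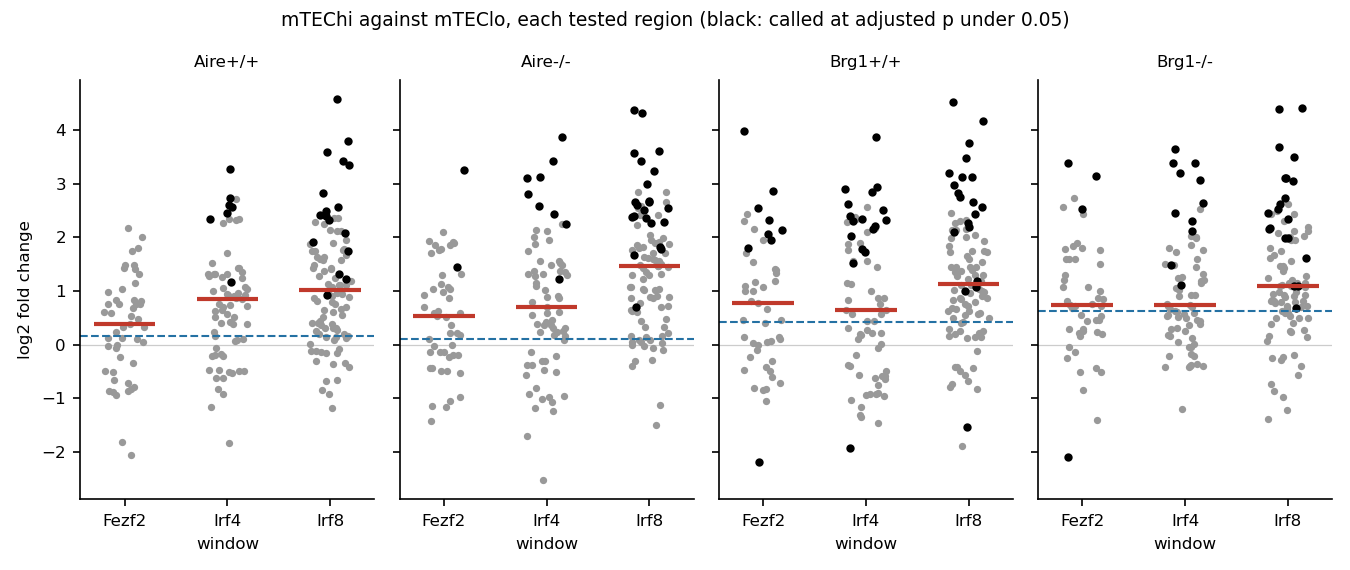
Log2 fold change of mTEChi against mTEClo (y axis) for each tested region of the 3 windows (x axis), in 1 panel per genotype. Black points were called at an adjusted p under 0.05, red bars are window medians and the dashed line is the median of all tested regions. The Irf8 medians, 1.02 to 1.47, stand above that line in each panel, and the Fezf2 window has no black point in Aire+/+.

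Within the Irf8 window, mTEChi was called higher at 17 of 98 tested regions in Aire+/+ (17.3%, against 5.14% of all tested regions), 22 in Aire-/- (22.4% against 7.15%), 19 in Brg1+/+ (19.4% against 9.21%) and 20 in Brg1-/- (20.4% against 6.61%). Lower calls numbered 0, 0, 1 and 0, where 3.65%, 4.22%, 3.75% and 1.5% of all regions were called lower. The median log2 difference was 1.02, 1.47, 1.12 and 1.09, against 0.16, 0.096, 0.42 and 0.62 over all tested regions. Quantile normalization moved the median of all regions to between -0.044 and -0.014, and re-centring on library medians moved it to between -0.17 and -0.052. Under these scalings the Brg1-/- calls fell from 20 higher and 0 lower to 8 higher and 1 lower, or 8 higher and 2 lower, and the Irf8 medians stayed positive, at 0.33 to 1.35. The shares of all regions called under these scalings are not given here. The counts under them can therefore not be set against the table. Leaving out 1 library, which also lowers the precision of the group it came from, cut a count by more than 1.5 times in several cases. The Aire+/+ count became 9 without mTEChi replicate 1, 8 without mTEClo replicate 1 and 6 without mTEClo replicate 2. In Aire-/- it became 12 without mTEChi replicate 1, 11 without mTEChi replicate 2 and 13 without mTEClo replicate 2. For Brg1+/+, calls in either direction dropped from 20 to 11 without mTEChi replicate 2 and to 12 without mTEClo replicate 2. For Brg1-/- they numbered 13 without mTEChi replicate 1, 9 without mTEChi replicate 2, 6 without mTEClo replicate 1 and 10 without mTEClo replicate 2.

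Among Irf8 regions called in at least 2 genotypes, that at -11.9 kb (chr8:123179912-123180411) had the largest mean sort difference. Its mTEChi values were 108 and 80.1 in Aire+/+, 93.2 and 128 in Aire-/-, 77.4 and 79.7 in Brg1+/+, and 58.3 and 48.8 in Brg1-/-. Its mTEClo values were 4.04 and 14.3, 7.96 and 10.9, 3.75 and 6.17, and 2.83 and 9.29, in the same order. The lowest mTEChi library was thus above the highest mTEClo library, 48.8 against 14.3. The log2 differences were 3.42 ± 0.60 (SE), 3.42 ± 0.60, 3.77 ± 0.60 and 3.11 ± 0.60, with limma adjusted p-values of 0.000355, 0.000289, 0.000104 and 0.00174. The Brg1-/- difference was 2.40 and no longer called without Brg1-/- mTEClo replicate 1.

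A region at 92.8 kb (chr8:123284617-123285116) was low in mTEClo, with values of 0.949 to 11.8 and a median of 4.17, and reached 24.2 to 75.5 in mTEChi, with a median of 59.3. It was called in all 4 genotypes, at log2 differences of 4.58, 2.67, 3.13 and 3.11 (SE 0.69 each) in the order Aire+/+, Aire-/-, Brg1+/+ and Brg1-/-. Some of these calls were lost when 1 library was left out. With 1 library in a group precision is lower, so a call can be lost even where the difference grows. In Aire-/- the difference was not called without mTEChi replicate 1 (2.54), mTEChi replicate 2 (2.80) or mTEClo replicate 2 (2.36), in Brg1+/+ without mTEChi replicate 2 (2.33), and in Brg1-/- without mTEChi replicate 1 (2.69) or mTEClo replicate 2 (2.51).

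The region at -8.3 kb (chr8:123183515-123184014) had a lowest, median and highest value of 26.8, 60.1 and 87.9 in mTEChi and 0.905, 7.01 and 11.0 in mTEClo. It was called in all 4 genotypes, with log2 differences of 2.42 to 4.33. The Aire+/+ call, at 2.42 ± 0.69, was lost under re-centring (2.09) and without mTEChi replicate 1 (1.94), mTEClo replicate 1 (2.13) or mTEClo replicate 2 (2.70). The Brg1-/- call, at 2.53 ± 0.69, was lost under quantile normalization (1.90), re-centring (1.76) and without mTEChi replicate 2 (2.11) or mTEClo replicate 1 (1.98). The region at 59.6 kb (chr8:123251434-123251933) ran from 34.8 to 70.2 in mTEChi and from 0.63 to 14.6 in mTEClo. It was called in 3 genotypes, and in Brg1-/- it had a log2 difference of 2.11 ± 0.71 with a limma adjusted p of 0.0592, which fell under the threshold with a pseudocount of 5 (1.68). Its Aire-/- call, at 2.28 ± 0.71, was lost under re-centring (2.11) and without either mTEChi library (2.48 and 2.08) or either mTEClo library (1.63 and 2.94).

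The other Irf8 regions with the highest mean signal differed among themselves. At 33.8 kb (chr8:123225645-123226144, mean signal 159) the mTEChi libraries ran from 171 to 222 and the mTEClo libraries from 97.0 to 164, without overlap. It was called in 3 genotypes at log2 differences of 0.93, 0.69 and 0.68 (SE 0.22 each), and in Brg1+/+ it gave 0.25 ± 0.22 with a limma adjusted p of 0.493. Re-centring ended all 3 calls, giving 0.60 in Aire+/+ and 0.53 in Aire-/-, and turned the Brg1-/- difference to -0.081. The Aire+/+ call was also lost without mTEClo replicate 1 (0.86), the Aire-/- call without any 1 of its 4 libraries (0.57 to 0.82), and the Brg1-/- call likewise (0.53 to 0.84), as well as with no filter, under quantile normalization (0.62) and in a fit to the 8 Brg1-line libraries. The region at 68.1 kb (chr8:123259954-123260453), by contrast, ran from 115 to 159 in mTEChi and from 104 to 143 in mTEClo, overlapped and was not called. Of the regions picked after their values were seen, that at -24.2 kb (chr8:123167621-123168120) had the highest mTEChi median of the regions called in all 4 genotypes, 182 with a range of 144.9 to 246, against 24.9 with a range of 8.77 to 46.9 in mTEClo. Its log2 differences were 3.35, 3.62, 2.28 and 2.45 (SE 0.41 each), and these 4 calls were kept under every alternative run. The lower call, at 71.5 kb in Brg1+/+ (-1.54 ± 0.52), was lost in a fit to the 8 Brg1-line libraries and without mTEChi replicate 2 (-0.65), mTEClo replicate 1 (-1.31) or mTEClo replicate 2 (-1.76).

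In the Irf4 window, mTEChi was called higher at 7 of 71 tested regions in Aire+/+ (9.86%), 9 in Aire-/- (12.7%), 16 in Brg1+/+ (22.5%) and 11 in Brg1-/- (15.5%), to be read against the same table shares as for Irf8. The single lower call was in Brg1+/+. The median log2 differences were 0.85, 0.70, 0.64 and 0.74, against the table medians given for Irf8. Scaling changed these counts, again without shares of all regions under the same scaling to set them against. Under quantile normalization and re-centring, the higher and lower calls became 8 and 1, then 5 and 1 in Aire+/+, 8 and 1 under both in Aire-/-, 6 and 1, then 8 and 1 in Brg1+/+, and 4 and 0, then 5 and 0 in Brg1-/-. The medians, in the same order, became 0.59, 0.52, 0.15 and 0.079 under quantile normalization and 0.52, 0.53, 0.17 and -0.019 under re-centring. Without mTEClo replicate 1 or replicate 2 the Aire+/+ count fell to 3, and Aire-/- had 5 without mTEClo replicate 1. Calls in either direction in Brg1+/+, 17 with all libraries, were 8 and 10 without mTEChi replicates 1 and 2, and 9 and 8 without mTEClo replicates 1 and 2. In Brg1-/- they were 4 and 3, and 6 and 5, in the same order.

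The Irf4 regions with the largest differences were spread over the window. At 171.4 kb (chr13:30923147-30923646) the mTEChi values were 60.4 and 78.2 in Aire+/+, 59.4 and 62.9 in Aire-/-, 60.8 and 77.8 in Brg1+/+, and 53.7 and 49.5 in Brg1-/-. In mTEClo the values were 6.76 and 13.2, 13.6 and 6.42, 11.4 and 6.59, and 2.86 and 5.55. The sorts did not overlap, and the mTEChi values were of like size in the 4 genotypes. The log2 differences were 2.73, 2.58, 2.85 and 3.39 (SE 0.58 each), called with limma adjusted p-values of 0.00247, 0.00333, 0.00134 and 0.000558. The Aire+/+ call was lost without mTEClo replicate 1 (2.30) and the Aire-/- call without mTEClo replicate 2 (2.09).

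At 26.1 kb (chr13:30777788-30778287) the lowest, median and highest values were 27.6, 53.6 and 105.6 in mTEChi against 0.614, 7.70 and 12.0 in mTEClo. The region was called in all 4 genotypes, at log2 differences of 3.28, 3.43, 3.87 and 2.45 (SE 0.75 each). The Aire+/+ call was lost without mTEClo replicate 1 (2.29) and the Brg1+/+ call without mTEClo replicate 2 (2.64). The Brg1-/- call was lost under quantile normalization (1.85), re-centring (1.69), a fit to the 8 Brg1-line libraries, and without mTEChi replicate 1 (2.81), mTEChi replicate 2 (2.09) or mTEClo replicate 2 (1.50). At 53.7 kb (chr13:30805418-30805917) the values were 37.8, 86.5 and 120.3 in mTEChi against 4.65, 10.9 and 14.3 in mTEClo. It was also called in each genotype, at log2 differences of 2.34, 3.88, 2.32 and 2.64 (SE 0.58 each). The Aire+/+ call was lost without mTEChi replicate 2 (1.54) or either mTEClo library (2.28 and 2.40), the Brg1+/+ call under quantile normalization (1.79) and without mTEChi replicate 2 (1.94) or mTEClo replicate 1 (2.08), and the Brg1-/- call without mTEChi replicate 2 (2.10) or mTEClo replicate 1 (2.34).

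At 70.2 kb (chr13:30821957-30822456) mTEChi ran from 52.3 to 116 and mTEClo from 7.55 to 19.4, with medians of 65.5 and 8.82. Its log2 differences, 2.60, 2.44, 2.31 and 3.20 (SE 0.53 each), were called in all 4 genotypes, and the Aire-/- call was lost without mTEClo replicate 1 (2.07). The Irf4 region at 89.1 kb (chr13:30840795-30841294) combined high signal with a sort difference. It ran from 82.7 to 148 in mTEChi and from 31.2 to 78.9 in mTEClo, and its log2 differences were 1.17, 1.53 and 1.11 (SE 0.34 each) in Aire+/+, Brg1+/+ and Brg1-/-, all called. In Aire-/- the difference was 0.23 ± 0.34 with a limma adjusted p of 0.728, and no interaction of genotype and sort was called in the window. Re-centring ended the 3 calls (0.84, 1.06 and 0.35). The Aire+/+ call was also lost without mTEChi replicate 2 (1.02) or mTEClo replicate 2 (0.74), the Brg1+/+ call without mTEClo replicate 1 (1.30), and the Brg1-/- call under quantile normalization (0.79) and without any 1 of its 4 libraries (1.02 to 1.20). The region at -3.0 kb (chr13:30748717-30749216) ran from 48.7 to 123 in mTEChi and from 22.4 to 75.0 in mTEClo, overlapped and was not called. The lower call, at 5.4 kb in Brg1+/+ (-1.93 ± 0.48), was lost without mTEChi replicate 2 (-1.07), mTEClo replicate 1 (-1.90) or mTEClo replicate 2 (-1.95).

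The Fezf2 window showed fewer and less uniform sort differences. Of its 49 tested regions, mTEChi was called higher at 0 in Aire+/+ (against 5.14% of all tested regions), 2 in Aire-/- (4.08% against 7.15%), 8 in Brg1+/+ (16.3% against 9.21%) and 3 in Brg1-/- (6.12% against 6.61%), and lower at 0, 0, 1 and 1. A single region is 2.04% of this window, so the Aire-/- and Brg1-/- shares lay close to the table's. The Aire+/+ share was below it and the Brg1+/+ share above it. For Aire+/+, limma gave 10 regions at an unadjusted p under 0.05 (20.4%, against 22.7% of all tested regions), with a smallest adjusted p of 0.0523. The median log2 differences were 0.38, 0.53, 0.78 and 0.74, against 0.16, 0.096, 0.42 and 0.62 over the table. Of the 49 regions 32, 31, 35 and 40 were above 0, as were 126168, 120769, 145647 and 165569 of all 225281 tested regions. The Fezf2 medians became 0.16, 0.32, 0.22 and 0.091 under quantile normalization and 0.053, 0.36, 0.31 and -0.022 under re-centring. The Aire+/+ median was 0.17 without mTEClo replicate 1, and the Aire-/- median was 0.32 without mTEChi replicate 1. Under quantile normalization and re-centring the higher and lower calls became 0 and 2, then 0 and 3 in Aire+/+, 1 and 0 under both in Aire-/-, 1 and 1, then 1 and 2 in Brg1+/+, and 1 and 2 under both in Brg1-/-. Shares of all regions under these scalings are not given here either. A count of 1 arose in Aire+/+ without mTEClo replicate 1, and Aire-/- had 1 without either mTEChi library or without mTEClo replicate 2. For Brg1+/+, with 9 calls in either direction, the counts were 2 and 3 without mTEChi replicates 1 and 2, and 4 without either mTEClo library. For Brg1-/-, with 4, they were 0 without mTEChi replicate 2, 2 without mTEClo replicate 1 and 1 without mTEClo replicate 2.

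The Fezf2 region at 34.6 kb (chr14:13251365-13251864) had the largest mean sort difference among those called in at least 2 genotypes. Its mTEChi values were 53.1 and 70.4 in Aire+/+, 71.4 and 108 in Aire-/-, 38.3 and 33.7 in Brg1+/+, and 30.0 and 21.2 in Brg1-/-. Its mTEClo values were 19.4 and 15.8, 3.37 and 18.7, 8.60 and 8.39, and 12.8 and 2.64. The sorts did not overlap, although the lowest mTEChi library, in Brg1-/-, was close to the highest mTEClo library, in Aire+/+. The log2 differences were 1.75, 3.26, 1.96 and 1.89 (SE 0.66 each), with limma adjusted p-values of 0.0977, 0.00131, 0.0464 and 0.0705, so that Aire-/- and Brg1+/+ were called. Aire+/+ was also called with a pseudocount of 5 (1.55), and Brg1-/- without mTEClo replicate 1 (2.85), while the Brg1-/- difference was 0.93 without mTEClo replicate 2. The Aire-/- call was lost without mTEClo replicate 1 (2.18). The Brg1+/+ call was lost under quantile normalization (1.38), re-centring (1.49), the replicate block, a fit to the 8 Brg1-line libraries and without any 1 of its 4 libraries (1.87 to 2.05).

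At -6.2 kb (chr14:13210552-13211051) the mTEChi values were 30.5 and 25.7 in Aire+/+, 81.6 and 65.0 in Aire-/-, 42.1 and 26.0 in Brg1+/+, and 46.2 and 64.2 in Brg1-/-. In mTEClo the values were 10.4 and 25.0, 27.4 and 30.8, 9.16 and 8.51, and 6.78 and 10.9. Within each genotype both mTEChi libraries lay above both mTEClo libraries, but across genotypes the sorts overlapped. The differences were called in Brg1+/+ (1.79 ± 0.55, limma adjusted p = 0.0291) and Brg1-/- (2.52 ± 0.55, adjusted p = 0.00497). The Brg1+/+ call was lost under quantile normalization (1.18), re-centring (1.33), a fit to the 8 Brg1-line libraries, and without mTEChi replicate 1 (1.46) or either mTEClo library (1.84 and 1.75). The Brg1-/- call was lost without mTEChi replicate 2 (2.29) or mTEClo replicate 1 (2.22).

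A weak region at -140.5 kb (chr14:13076234-13076733) was called higher in mTEChi in Brg1+/+ (2.87 ± 0.88) and Brg1-/- (3.14 ± 0.88), and had a difference of -0.66 ± 0.88 in Aire+/+. Its values ran from 6.48 to 31.8 in mTEChi and from 0.379 to 25.1 in mTEClo. Both calls were lost under quantile normalization (2.23 and 2.14), re-centring (2.40 and 2.38) and a fit to the 8 Brg1-line libraries. The Brg1+/+ call was also lost without mTEChi replicate 2 (2.22) or mTEClo replicate 1 (1.82), and the Brg1-/- call without mTEChi replicate 2 (2.13) or either mTEClo library (2.97 and 3.32). The other strongly open Fezf2 regions, at 6.9 kb (chr14:13223599-13224098) and -100.3 kb (chr14:13116453-13116952), ranged from 43.6 to 115 and from 57.6 to 121 in mTEChi, and from 78.9 to 138 and from 56.8 to 94.1 in mTEClo, with overlapping libraries and no call. The lower calls, named like those of the other windows after their values were seen, were at -91.2 kb in Brg1+/+ (-2.20 ± 0.64) and at -79.2 kb in Brg1-/- (-2.10 ± 0.67). The first was lost without mTEChi replicate 1 (-1.92) or mTEClo replicate 1 (-1.72). The second was lost with a pseudocount of 5 (-1.38), with no filter, with the replicate block, in a fit to the 8 Brg1-line libraries and without any 1 of its 4 libraries (-2.48 to -1.71).

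**Figure D3:**
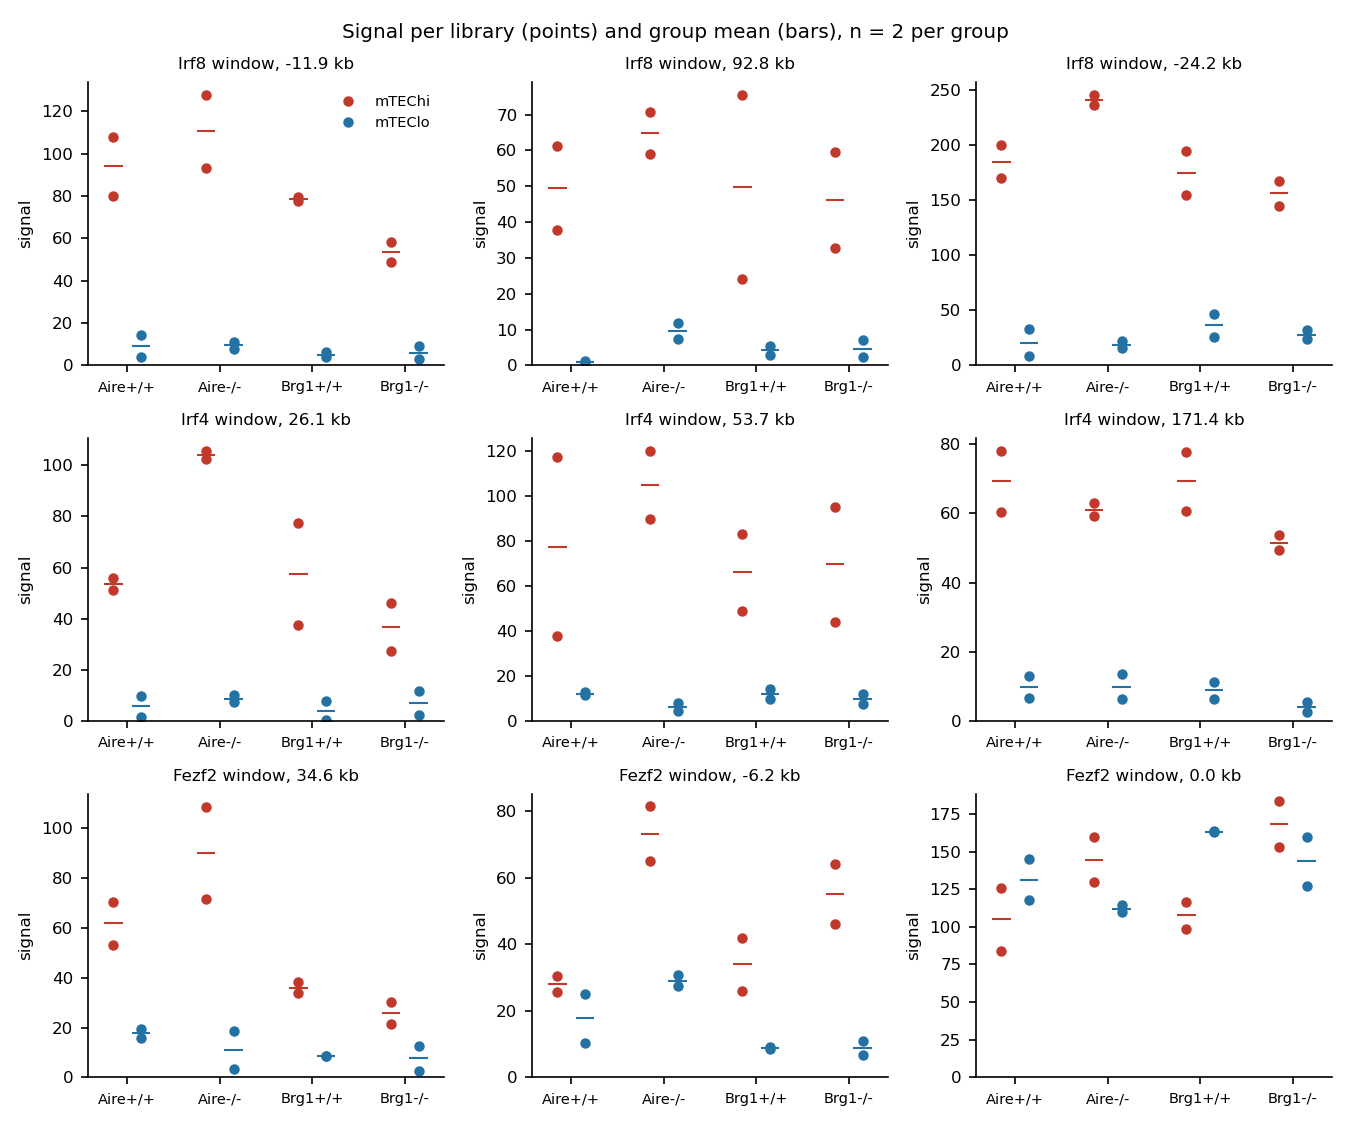
Signal on the authors' scale (y axis, from 0) by genotype (x axis) for 3 regions of each window, placed by their distance in kb from the top region. Points are single libraries and bars are means of 2, in mTEChi (red) and mTEClo (blue). The Irf8 and Irf4 panels show only regions with large sort differences, and there the sorts do not overlap. Their top regions, where the sorts overlap, are not shown. Among the Fezf2 panels the sorts do not overlap at 34.6 kb, and they overlap at the top region, from 84.0 to 184 in mTEChi.

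Averaged over a window, the separation of the sorts followed the same order. The mean log2(signal + 1) of the Irf8 window minus that of all 250313 regions ran from 0.065 to 0.87 over the mTEChi libraries and from -0.45 to -0.30 over the mTEClo libraries. The Irf4 window ran from 0.19 to 0.69 and from -0.16 to 0.064, also without overlap. For Fezf2 the ranges were -0.026 to 0.62 and -0.20 to 0.11, which overlap. Irf8 mTEChi levels were in the order Aire-/- (0.86 ± 0.025, SD, n = 2), Aire+/+ (0.51 ± 0.037), Brg1+/+ (0.38 ± 0.13) and Brg1-/- (0.16 ± 0.14). Both Aire-/- libraries lay above the other 6. The Aire+/+ and Brg1+/+ means differed by less than the SD of the Brg1+/+ libraries. The Brg1+/+ and Brg1-/- libraries did not overlap, but they differed by less than the sum of their SDs. In mTEClo the 4 Irf8 means lay between -0.41 and -0.34. The Irf4 mTEChi means followed the same order, at 0.62 ± 0.090, 0.47 ± 0.062, 0.28 ± 0.055 and 0.20 ± 0.0092, and no neighbours in this order overlapped. For Fezf2 they were 0.46 ± 0.22 in Aire-/-, 0.29 ± 0.17 in Brg1+/+, 0.17 ± 0.12 in Aire+/+ and 0.085 ± 0.16 in Brg1-/-, and these neighbours did not differ beyond their spread. The place of Brg1-/- below Brg1+/+ depends on subtracting the mean of all regions. Without it, the Brg1-/- mTEChi mean was the higher of the 2 in each window. The values were 4.37 against 4.32 for Irf8, 4.41 against 4.21 for Irf4 and 4.30 against 4.23 for Fezf2, with overlapping libraries at Irf8 and Fezf2.

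**Figure D4:**
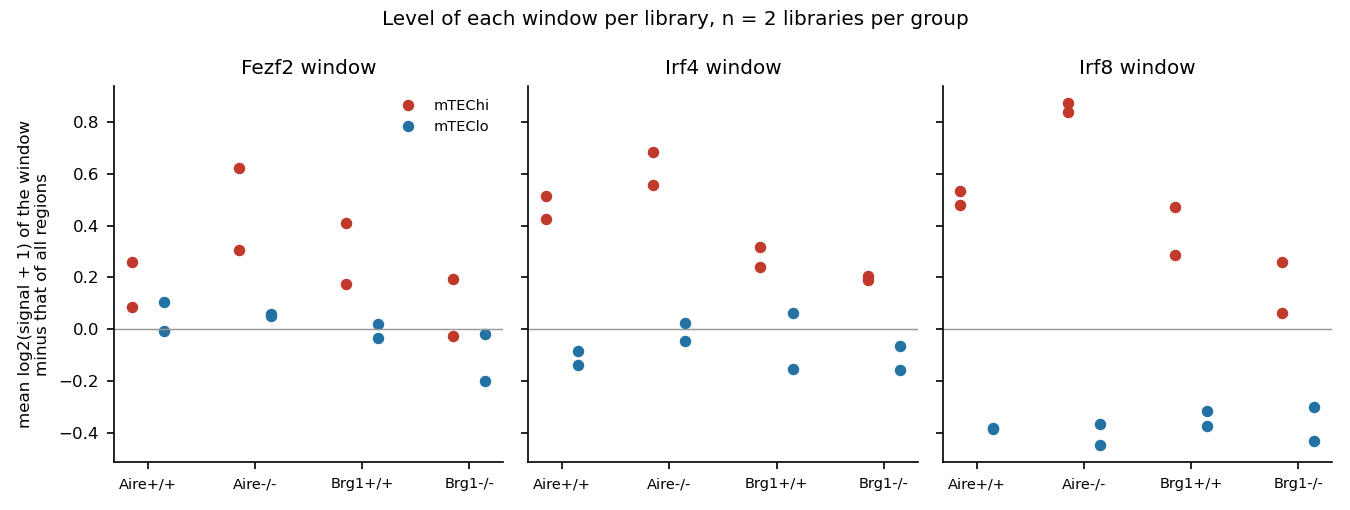
Mean log2(signal + 1) over the regions of each window minus that over all regions (y axis), for each library by genotype (x axis), in mTEChi (red) and mTEClo (blue), with 2 libraries per group. The Irf8 mTEClo libraries all lie below -0.29 and the 2 Aire-/- mTEChi libraries are the highest of that window.

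Loss of Aire gave no call at the 3 loci in either sort. In mTEChi, limma called 0 of the 218 tested regions, 18 had an unadjusted p under 0.05 (8.26%, against 10.2% of all tested regions), and the smallest adjusted p was 0.225, while 0.0209% of all regions were called. In mTEClo it called 0, 9 had an unadjusted p under 0.05 (4.13% against 2.5%), and 0% of all regions were called. The interaction of Aire genotype and sort also gave 0 calls at the loci, with 11 at an unadjusted p under 0.05 (5.05% against 5.15%), where 0.000444% of all regions were called. A region's log2 fold change had a median SE of 0.78 at Irf8, 0.71 at Irf4 and 0.70 at Fezf2. These were the same in mTEChi and mTEClo, because the spread was pooled over the groups. At the median SE a log2 change of 1 was less than 2 SE, whereas strongly open regions had smaller SEs, such as 0.22 at 33.8 kb in the Irf8 window. Larger changes were not called either, up to log2 values of -2.94 in mTEChi and 2.81 in mTEClo.

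The Irf8 regions, and in a like share the Fezf2 regions, nevertheless leaned to higher signal in Aire-/- mTEChi, as a description of these 4 libraries. At Irf8 the median log2 fold change was 0.40, with 69 of 98 above 0 (70.4%), against -0.0015 and 49.9% over all tested regions. Both Aire-/- libraries lay above both Aire+/+ libraries at 35 Irf8 regions (35.7%) and below them at 10 (10.2%), where all regions gave 18.9% and 18.6%. The median stayed between 0.30 and 0.46 when any 1 of the 4 libraries was left out, and was 0.44 under quantile normalization and 0.56 under re-centring, which moved all regions to 0.16. The Aire+/+ mTEChi replicate with the low correlation to other libraries enters this comparison, and without it the median was 0.31. In mTEClo the Irf8 median was -0.028, with 20 regions above and 16 below, where all regions gave 16.8% and 17.1%. For Fezf2 in mTEChi the median was 0.27, with 34 of 49 fold changes above 0 (69.4%). Both Aire-/- libraries lay above both Aire+/+ libraries at 16 of these regions and below at 8, and the median was 0.16 without Aire-/- mTEChi replicate 1. For Irf4 it was 0.14, with 20 above and 9 below of 71, and it turned to -0.048 without Aire-/- mTEChi replicate 2. Irf4 in mTEClo had 18 above and 9 below, with a median of 0.10, and Fezf2 had 8 and 8, with a median of -0.032. The mTEChi fold changes share the Aire+/+ and Aire-/- mTEChi libraries with the sort comparisons above, so the 2 are not independent.

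The smallest unadjusted p for loss of Aire in mTEChi was at a weak Irf4 region at 130.2 kb (chr13:30881959-30882458), with 13.1 and 19.1 in Aire+/+ and 0.828 and 1.64 in Aire-/-. The log2 fold change was -2.94 ± 0.86, with a limma adjusted p of 0.225, and the groups did not overlap. In mTEClo it was at an Irf8 region at 99.2 kb (chr8:123291027-123291526), with 0.926 and 1.13 in Aire+/+ and 9.09 and 18.9 in Aire-/-. There the log2 fold change was 2.81 ± 0.82, with a limma adjusted p of 1.

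Loss of Brg1 likewise gave 0 calls at the loci in mTEChi, with 23 of 218 at an unadjusted p under 0.05 in limma (10.6%, against 10.7% of all tested regions) and a smallest adjusted p of 0.188, while 0.0257% of all regions were called. In mTEClo it gave 0, with 12 at an unadjusted p under 0.05 (5.50% against 6.15%), where 0.000444% of all regions were called. The interaction of Brg1 genotype and sort gave 0, with 21 at an unadjusted p under 0.05 (9.63% against 7.09%), where 0% of all regions were called. The median log2 fold changes in mTEChi were 0.038 at Irf8, 0.14 at Irf4 and -0.012 at Fezf2, all below the 0.22 of all regions. Under quantile normalization they were -0.16, -0.095 and -0.29 while all regions were at -0.0073, and under re-centring -0.42, -0.31 and -0.47 while all regions were at -0.23. The sign of the Irf8 and Irf4 medians thus turned with the scaling, and the 3 medians lay below that of all regions under each of these scalings. With 1 library left out the Fezf2 median was above that of all regions only without Brg1-/- mTEChi replicate 1, at 0.41 against 0.37, and the Irf4 median only without Brg1+/+ mTEChi replicate 2, at 0.31 against 0.25. Both Brg1-/- mTEChi libraries lay above both Brg1+/+ libraries at 15 Irf8, 20 Irf4 and 13 Fezf2 regions and below them at 14, 11 and 9, where all regions gave 24.8% and 11.7%. At Irf8 these were 15.3% and 14.3%. In mTEClo the counts were 12, 11 and 6 above and 18, 18 and 10 below, where all regions gave 20.6% and 18.4%.

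The smallest unadjusted p for loss of Brg1 in mTEChi was at an Irf8 region at 60.3 kb (chr8:123252155-123252654), with 27.1 and 10.7 in Brg1+/+ against 59.6 and 101 in Brg1-/-. The groups did not overlap, and the log2 fold change was 2.12 ± 0.58, with a limma adjusted p of 0.188. In mTEClo it was at an Irf4 region at 23.0 kb (chr13:30774763-30775262), with 1.87 and 6.17 in Brg1+/+ and 41.4 and 10.4 in Brg1-/-. Its log2 fold change was 2.28 ± 0.72, with a limma adjusted p of 0.638.

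**Figure D5:**
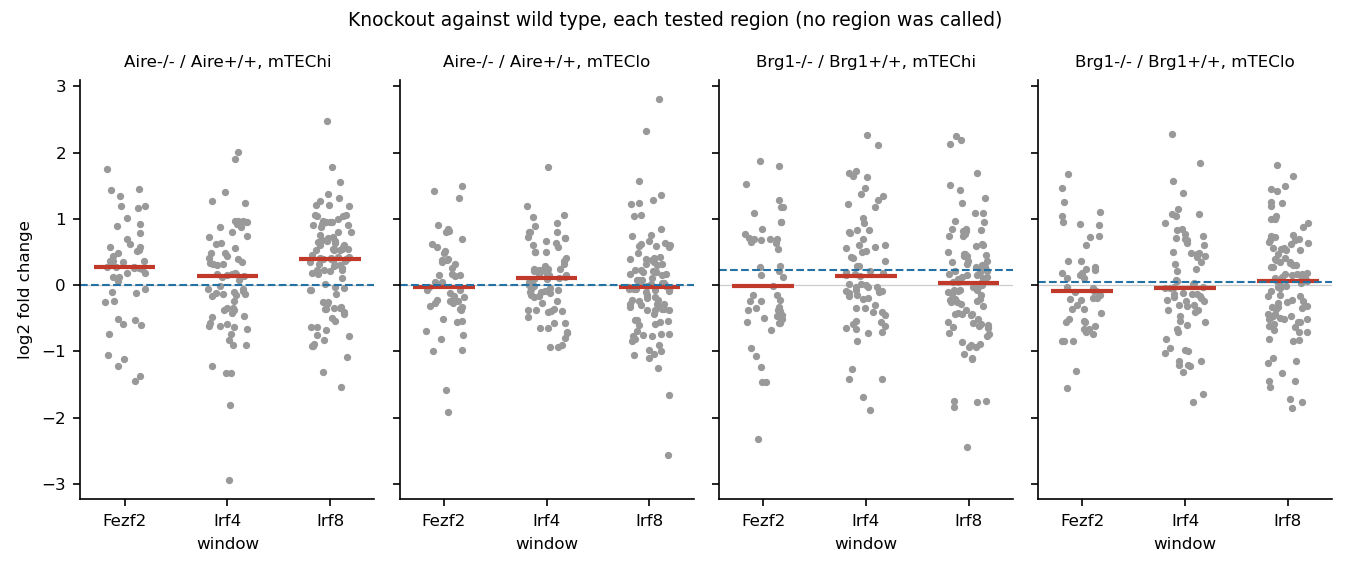
Log2 fold change of knockout against wild type (y axis) for each tested region of the 3 windows (x axis), in 1 panel per line and sort. Red bars are window medians and the dashed line is the median of all tested regions. No region of the windows was called, and the Irf8 median in Aire-/- mTEChi, 0.40, lies above the line at -0.0015.

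The 2 wild types were compared to show how far the lines differ at these loci. limma called 0 of 218 regions between Aire+/+ and Brg1+/+ in mTEChi, with 21 at an unadjusted p under 0.05 (9.63%, against 10.5% of all tested regions), and 0 in mTEClo, with 25 (11.5% against 7.40%). Of all tested regions 0.156% and 0.0368% were called. Without Brg1+/+ mTEChi replicate 1, 2 regions of the windows were called in mTEChi.

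The regions whose group means were most like those of each top region in pattern were sought over the 8 groups, as a description without a test. For the top Irf4 region they were an Irf4 region (chr13:30816722-30817221, Pearson r = 0.95) and an Irf8 region (chr8:123271119-123271618, r = 0.93). The top Irf8 region was most like Irf8 regions at chr8:123345215-123345714 (r = 0.95) and chr8:123203401-123203900 (r = 0.84). For the top Fezf2 region the highest values were only 0.60, at its neighbour chr14:13215408-13215907, and 0.54, at an Irf4 region (chr13:30855413-30855912). The points share their libraries and the authors' scaling.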

How the data were processed

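ATAC-seq signal in 16 libraries was taken from the authors' deposited table of normalized signal per 500 bp region. The submitters' processing notes name Bowtie2, MACS2 and the build mm9. Versions, the region definition, any Tn5 shift, duplicate removal and the scaling were not given in the sources used here. Library depth is unknown, so only 2 libraries per group set the precision.

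Groups came from the labels. limma 3.58.1 in R 4.3.3 fitted 1 mean per group to log2(signal + 1) over all 16 libraries (8 residual degrees of freedom, trend and robust moderation) for 225281 regions with a mean of at least 7.48, with 12 contrasts, each adjusted by Benjamini-Hochberg over all of them and two-sided. The procedure was tested on simulated data. Fold changes are on the log2(signal + 1) scale, which understates changes of low regions.

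The members, lists and tests were chosen with earlier results of these data known. Named regions were the 3 with the highest mean per window, up to 4 per direction with the largest mean sort difference among those called in at least 2 genotypes, any called for a knockout, interaction or line, and otherwise the region with the smallest p. Likeness used the 2 highest Pearson r values. Marker and pathway lists needed an mm9 annotation and were not run. Promoters came from RefSeq, and all 3 genes matched. Alternatives were a pseudocount of 5, no filter, quantile normalization, re-centring on library medians, a replicate block, only the 8 libraries of the lines compared, and leaving out each library.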

Additional observations from a re-analysis of the deposited data

How the results depend on the processing

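Across the alternatives, 54 of 120 counts of calls between the sorts moved by more than 1.5 times from the value with all libraries. Counts for the knockouts, interactions and lines are 0 with all libraries, and 87 of 88 were 0 under the alternatives, which says little on stability. Of the single-region results, 506 of 620 kept their direction and side of the threshold, with 109 calls lost, 3 gained and 2 reversed. The cause of these changes was not tested. One reversed result was the Brg1-/- sort difference of the Irf8 region at 33.8 kb, -0.081 under re-centring. The other was the Aire+/+ sort difference of the Fezf2 region at -140.5 kb, -0.66 with all libraries, -1.50 without Aire+/+ mTEClo replicate 1 and 0.18 without replicate 2.

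Counts of regions called between the sorts moved as follows. With a pseudocount of 5, Fezf2 in Aire+/+ went from 0 to 3. With no filter, Fezf2 in Aire-/- went from 2 to 1. Under quantile normalization the counts were 2, 1 and 2 for Fezf2 in Aire+/+, Aire-/- and Brg1+/+, 7 and 4 for Irf4 in Brg1+/+ and Brg1-/-, and 12 and 9 for Irf8 in Brg1+/+ and Brg1-/-. Under re-centring they were 3, 1 and 3 for Fezf2, 9 and 5 for Irf4 in the same genotypes, and 10 and 10 for Irf8 in Aire+/+ and Brg1-/-. With only the 8 libraries of the lines compared, Fezf2 had 2, 4 and 1 in Aire+/+, Brg1+/+ and Brg1-/-.

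Labels do not say that replicate numbers pair samples, and replicate differences of groups correlated at -0.018 to 0.034. With the replicate block, Fezf2 in Aire+/+ had 1 call in place of 0, and the other 19 counts stayed within 1.5 times.

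Leaving out 1 library, where the lone library of a group is assumed to vary like the other groups, gave ranges, in the order Aire+/+, Aire-/-, Brg1+/+ and Brg1-/-, of 0 to 1, 1 to 2, 2 to 4 and 0 to 4 for Fezf2, 3 to 6, 5 to 8, 8 to 10 and 3 to 6 for Irf4, and 6 to 12, 11 to 16, 11 to 15 and 6 to 13 for Irf8. Knockout and interaction counts stayed at 0, as did the lines in mTEClo, and the lines in mTEChi ranged from 0 to 2. Regions with all mTEChi above all mTEClo libraries, an alternative chosen after seeing the data, as were those of the lower calls, the region at -24.2 kb and the calls of the strongest regions, ranged from 2 to 4 for Fezf2, with 4 without Aire+/+ mTEChi replicate 2, from 9 to 13 for Irf4 and from 20 to 25 for Irf8. Leaving a library out can only keep or raise this count.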
